A study of Mus musculus with 2 samples.

Results

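Transforming growth factor beta (TGF-beta) ligands, latent TGF-beta binding proteins, TGF-beta receptors and the TGF-beta induced matrix protein were read in granulosa cells. These cells were compared with and without an intact allele of Esr2, the gene of estrogen receptor beta. The set held 9 genes: the ligands Tgfb1, Tgfb2 and Tgfb3, the latent binding proteins Ltbp1, Ltbp2 and Ltbp3, the receptors Tgfbr1 and Tgfbr2, and Tgfbi. A gene was taken where a non-control probe present on both arrays carried its symbol through its accession or its description. Each of the 9 had 1 probe, out of 20582 genes or unnamed transcripts measured on both arrays. The set was chosen with its ratios between the genotypes known, so the levels and ratios of its members are given as a description, with no test.

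The null pool was RNA of granulosa cells from female C57/Bl6 Esr2-/- mice, and the het pool was RNA of granulosa cells from female C57/Bl6 Esr2+/- mice. Mice of both genotypes were 23 to 25 days old and had received PMSG (pregnant mare serum gonadotropin, which acts like follicle-stimulating hormone) for 48 h. The comparison asks how granulosa cells that have been driven toward the preovulatory state differ without estrogen receptor beta. Cells were pooled by genotype into 1 RNA pool each, and the pools were hybridised together on 2 two-colour Agilent arrays, with Cy3 and Cy5 exchanged on the second. The het mice carry 1 disrupted Esr2 allele themselves, so no wild-type cells enter the comparison. The arrays are technical repeats, so an SD below (n = 2 technical hybridisations) covers hybridisation and dye only, no variation between mice was measured, and no p-value is given.

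TGF-beta is secreted as a latent complex in which the mature dimer stays bound to its own propeptide. Latent TGF-beta binding proteins other than Ltbp2 link that complex to fibrillin and fibronectin fibres, and integrins or proteases later release the ligand. Freed ligand brings the type II receptor, encoded by Tgfbr2, together with the type I receptor, encoded by Tgfbr1, which phosphorylates Smad2 and Smad3. In the ovary, members of this family are made by granulosa and theca cells and act on proliferation, steroid synthesis and matrix formation.

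Promoter windows came from a RefSeq promoter table (GRCm38.p6) with entries for all members but Tgfb3. They are shown for Ltbp1, the member with the largest ratio, at both of the start sites that this table gives, and for Ltbp3 and Tgfbi, whose ratios had the opposite sign. Each runs 5′ to 3′ over the 250 bases before the start site on the plus strand, at chr17:75005279-75005528, chr17:75178531-75178780, chr19:5740650-5740899 and chr13:56609336-56609585 in the order shown. The annotated span of Ltbp1 begins inside its upstream window, at base 75005480, so at least 1 annotated start lies before the one used. Capitals mark matches, on either strand, to the motifs searched.
Ltbp1, upstream start: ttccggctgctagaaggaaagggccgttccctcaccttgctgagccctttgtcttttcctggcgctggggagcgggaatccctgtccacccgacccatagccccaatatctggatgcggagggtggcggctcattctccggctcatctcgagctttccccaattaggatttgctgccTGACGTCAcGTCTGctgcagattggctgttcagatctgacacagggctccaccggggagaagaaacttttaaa
Ltbp1, downstream start: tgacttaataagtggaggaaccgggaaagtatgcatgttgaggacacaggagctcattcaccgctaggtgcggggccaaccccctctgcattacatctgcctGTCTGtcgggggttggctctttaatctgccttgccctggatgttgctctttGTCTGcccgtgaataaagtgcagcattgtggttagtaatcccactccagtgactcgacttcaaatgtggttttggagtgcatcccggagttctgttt
Ltbp3: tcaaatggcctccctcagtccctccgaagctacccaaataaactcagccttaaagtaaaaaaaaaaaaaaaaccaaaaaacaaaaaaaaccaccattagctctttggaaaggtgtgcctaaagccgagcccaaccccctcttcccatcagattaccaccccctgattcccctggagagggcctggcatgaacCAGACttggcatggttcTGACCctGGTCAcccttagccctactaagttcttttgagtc
Tgfbi: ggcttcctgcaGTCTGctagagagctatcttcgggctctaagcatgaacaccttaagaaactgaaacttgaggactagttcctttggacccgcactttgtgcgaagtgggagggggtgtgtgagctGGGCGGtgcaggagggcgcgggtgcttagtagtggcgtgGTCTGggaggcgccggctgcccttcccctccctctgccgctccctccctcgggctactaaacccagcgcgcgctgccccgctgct

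The motifs were the estrogen response element (GGTCANNNTGACC), its half-site (GGTCA), the AP-1 site (TGANTCA), the cAMP response element (TGACGTCA), the GC box (GGGCGG), the SMAD box (CAGAC) and the TATA box (TATAAA). The cAMP response element was added after the windows had been read, and the half-site overlaps the full estrogen element. The upstream Ltbp1 window held the cAMP response element 73 bases before the start, a motif present in 1.55% of 32851 windows of the same length, and a SMAD box 64 bases before it. The downstream Ltbp1 window held SMAD boxes 148 and 97 bases before the start. SMAD boxes are common, with 42.2% of windows holding at least 1. Neither Ltbp1 window held the letters of the full estrogen element, which occur in 0.064% of windows, or of the half-site, which occur in 35.2%. The Ltbp3 window held half-sites 41 and 34 bases before the start and a SMAD box 58 bases before it, and the Tgfbi window held a GC box (32.7% of windows) 124 bases before the start and SMAD boxes 239 and 85 bases before it. Among the windows not shown, those of Tgfb1 and both of Tgfbr1 held a half-site, and those of Ltbp2, Tgfb2 and Tgfbr2 held none. The annotated spans of Ltbp2 and Tgfb2 also reach beyond the starts used here. Any relation of half-sites to the ratios was not tested. A match of letters is no evidence of a bound site.

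After normalization, 18531 genes or unnamed transcripts were kept, each well above background on both arrays in the channel of 1 genotype or more. All 9 members were kept and were well above background in either pool, on each array. Over all genes passing the filter the SD of the mean log2 ratio was 0.136, and 98.8% of genes lay within 0.5 log2 units of equality. The targeted gene Esr2 had log2 ratios of null over het of -0.50 and -0.46, a mean of -0.48 ± 0.03 (SD, n = 2 technical hybridisations). Where its probe lies relative to the disruption is not known here, so this value does not check the genotype labels. In the sentences below the value of array 1 precedes that of array 2, levels are normalized log2 signals, and ratios are log2 of null over het. A signal is comparable between pools for 1 probe and not between probes.

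The latent binding proteins held the member with the largest difference between the pools. Ltbp1 encodes a protein that is linked to latent TGF-beta inside the cell and anchors it in the matrix. Its probe (NM_019919, gene at chr17:75005480-75392512, GRCm38.p6) read 7.01 and 6.98 in the null pool, against 7.998 and 7.82 in the het pool. The null signals were lower than the het signals on both arrays, and the ranges of the pools did not overlap. The share of all genes without such overlap was not computed, so nothing is read from overlap here or below. The log2 ratios were -0.99 and -0.84 and averaged -0.92 ± 0.10 (SD, n = 2 technical hybridisations), which is 1.89-fold lower in the null pool. That mean was the 22nd lowest of the 18531 genes, and 30 genes (0.162%) had a larger absolute ratio. The spot was 3.10 and 2.28 times its local background in the null pool, against 3.82 and 6.99 times in the het pool. Within an array the pools carry different dyes, so here and below these multiples do not compare the pools. Without the offset of 50 that is added to corrected signals, the ratio was -1.38, and in the scanner software's own log ratios it was -1.50 and -1.34, a mean of -1.42 ± 0.12 or 2.67-fold lower. RefSeq lists 14 Ltbp1 transcripts, and which of them the probe reads is not known here. In RNA of pooled cells, fewer cells of a type and less RNA per cell cannot be told apart.

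The other latent binding proteins had ratios of the opposite sign. Ltbp3, whose product also binds latent TGF-beta in the cell, read 10.02 and 10.06 in the null pool, against 9.75 and 9.62 in the het pool (NM_008520, chr19:5740900-5758536). Its null signals were above its het signals on both arrays without overlap, with ratios of 0.26 and 0.44 and a mean of 0.35 ± 0.13, or 1.28-fold. With arrays centred on the median in place of loess, the Ltbp3 ratios were 0.70 and -0.10, so the sign differed between arrays. Ltbp2, a relative that is found on elastic fibres and does not bind latent TGF-beta, read 7.28 and 6.94 in the null pool, against 7.16 and 6.73 in the het pool (NM_013589, chr12:84783212-84876558). Within each array the null signal was the higher one, but the ranges of the pools overlapped across arrays, and the ratio was 0.12 and 0.21 with a mean of 0.16 ± 0.07. The Ltbp1 ratio lay 1.27 ± 0.02 log2 units below that of Ltbp3 (a difference of -1.25 on array 1 and -1.28 on array 2) and 1.08 ± 0.04 below that of Ltbp2 (-1.10 and -1.05). By the scanner software's own values these differences were -1.77 and -1.81 against Ltbp3 and -1.81 and -1.80 against Ltbp2. The ratio of Ltbp2 minus that of Ltbp3 was -0.15 and -0.23, and 0.04 and -0.01 in the scanner software's ratios. For Ltbp4, no probe carried the symbol, and the probe described as a homolog of LTBP4 (AK009837) had a ratio of 0.09 ± 0.12.

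**Figure D1:**
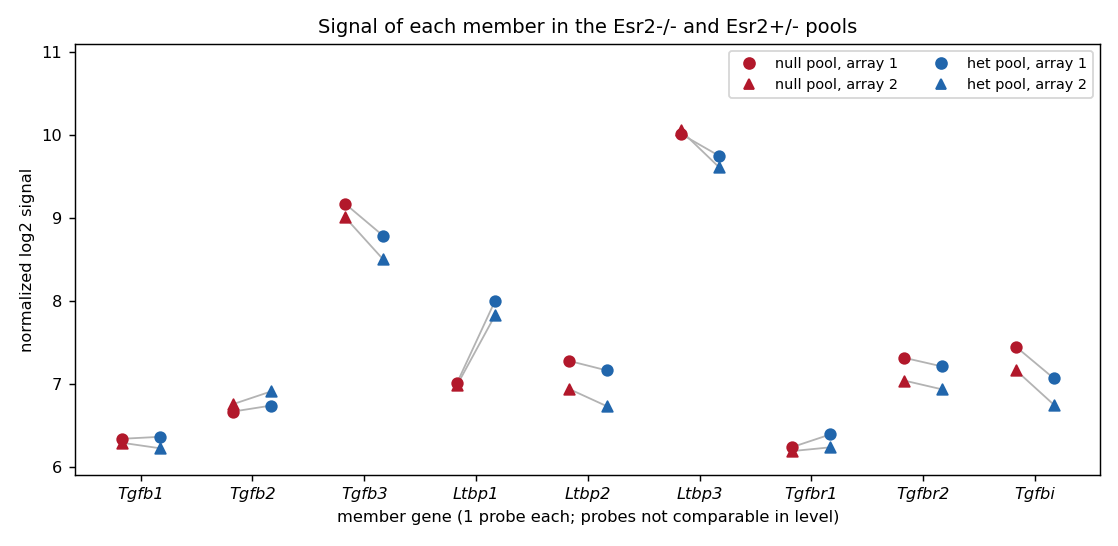
Normalized log2 signal (vertical axis) of the probe of each member gene (horizontal axis) in the null pool (red) and the het pool (blue), with circles for array 1, triangles for array 2 and a line joining the pools on an array. Ltbp1 sits near 7 in the null pool and near 8 in the het pool on both arrays, while Tgfb3, Ltbp3 and Tgfbi slope the other way.

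Among the ligands, Tgfb3 had the largest ratio. Its probe (NM_009368, chr12:86056743-86079041) read 9.17 and 9.01 in the null pool, against 8.78 and 8.50 in the het pool. The null signal was higher on both arrays and the pools did not overlap, with ratios of 0.39 and 0.51 and a mean of 0.45 ± 0.09, or 1.36-fold. It ranked 153rd highest of 18531 genes, and 1.59% of genes had a larger absolute ratio. The spot stood 15.4 and 7.30 times above local background in the null pool, against 6.14 and 12.1 times in the het pool. The mean of the scanner ratios was 0.52, and arrays centred on the median in place of loess gave 0.77 and 0.06.

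Tgfb1 and Tgfb2 were nearer to equality. Tgfb1, the form most studied in immune and connective tissue (NM_011577, chr7:25687002-25705077), read 6.33 and 6.29 in the null pool, against 6.36 and 6.22 in the het pool. The pools overlapped, the arrays gave opposite signs, -0.02 and 0.07, and the mean was 0.02 ± 0.06. Tgfb2, a form with a low affinity for the type II receptor in the absence of betaglycan (NM_009367, chr1:186622787-186709697), read 6.66 and 6.75 in the null pool, against 6.74 and 6.91 in the het pool. Its ratio was negative on both arrays, at -0.07 and -0.15 with a mean of -0.11 ± 0.06, and the pools overlapped across arrays. The Tgfb1 spots were between 1.52 and 1.87 times their local background, and the mean of the scanner ratios was 0.0094. Set against each other, the Tgfb3 ratio exceeded that of Tgfb1 by 0.41 and 0.44 and that of Tgfb2 by 0.46 and 0.66.

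The receptor genes had ratios of opposite sign. Tgfbr1, the type I receptor kinase gene (NM_009370, chr4:47353222-47414926), read 6.23 and 6.19 in the null pool, against 6.39 and 6.23 in the het pool. The pools overlapped across arrays. The ratio was -0.15 and -0.05, a mean of -0.10 ± 0.08, and it turned to 0.03 when arrays were centred on the median in place of loess. The Tgfbr2 probe, identified only by its description (AK046561, gene at chr9:116087695-116175363), read 7.31 and 7.04 in the null pool, against 7.21 and 6.93 in the het pool. The null signal was higher within each array, by 0.11 on both, and the ranges of the pools overlapped across arrays. The ratio of Tgfbr2 lay 0.26 and 0.15 above that of Tgfbr1, and 0.54 and 0.59 above it in the scanner software's ratios.

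Tgfbi encodes a secreted matrix protein, first found through its induction by TGF-beta in human cells, that binds collagen and integrins. Its probe (NM_009369, chr13:56609586-56639359) read 7.45 and 7.16 in the null pool, against 7.06 and 6.75 in the het pool, and the pools did not overlap. The ratio was 0.38 and 0.42, a mean of 0.40 ± 0.02 or 1.32-fold, the 207th highest of 18531 genes. The spot was 3.95 and 2.70 times its background in the null pool, against 2.06 and 3.13 times in the het pool. As for Ltbp1, the scanner software gave a larger ratio, 0.59 and 0.80 with a mean of 0.70, or 1.62-fold.

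**Figure D2:**
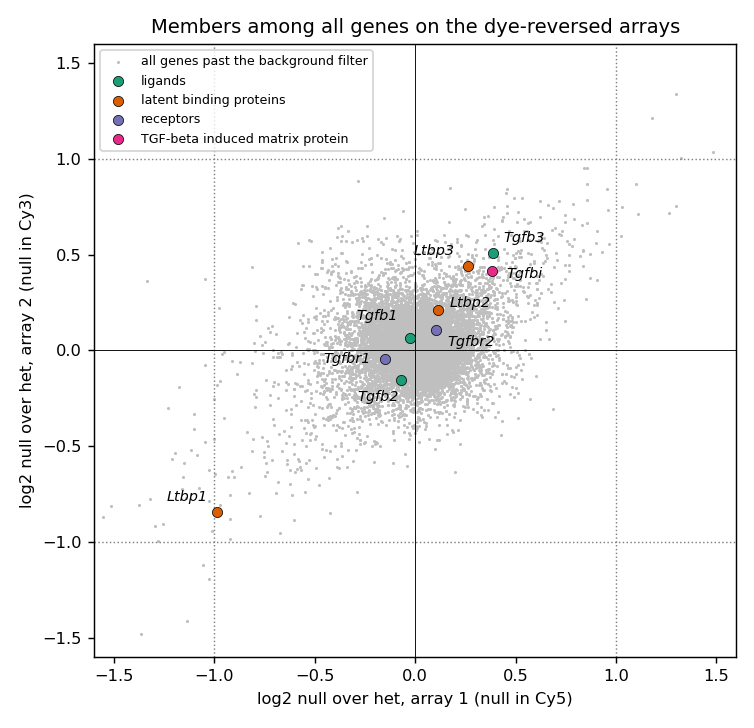
Log2 ratio of null over het on array 1 (horizontal axis, null pool in Cy5) against array 2 (vertical axis, null pool in Cy3, turned to the same direction) for all genes past the background filter (grey) and the 9 members (coloured by role), with dotted lines at 2-fold; 8 genes lie outside the axes. Ltbp1 stands apart at the lower left (-0.99, -0.84), Tgfb3, Ltbp3 and Tgfbi lie at the upper right, and the other members lie in the central cloud.

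The size rule called a gene higher or lower where the mean ratio reached 2-fold and both arrays reached 1.5-fold in that direction. Of the 9 members, 0 were higher, where 0.0378% of all genes were, and 0 were lower, where 0.0917% were. With thresholds of 1.5-fold for the mean and 1.2-fold for each array, 0 members were higher, against 0.405% of all genes, and 1, Ltbp1, was lower, against 0.416%. In the scanner software's ratios the 2-fold rule called 0 members higher (0.14% of all genes) and Ltbp1 lower (0.243%). There the 1.5-fold rule called Tgfbi higher (1.05% of all genes) and Ltbp1 lower (0.971%). With an offset of 0 the 2-fold rule called 0 members higher (0.124%) and Ltbp1 lower (0.232%), and the 1.5-fold rule called Tgfbi higher (0.826%) and Ltbp1 lower (0.842%). The members were chosen with these ratios known, so nothing is read from the counts. By sign, 8 of the 9 had the same sign on both arrays, against 47.0% of all genes. These were 5 positive members (Tgfb3, Ltbp2, Ltbp3, Tgfbr2 and Tgfbi), a state 22.7% of genes shared, and 3 negative ones (Tgfb2, Ltbp1 and Tgfbr1), which 24.3% shared. The arrays differed by a median of 0.09 over the members (range 0.00 to 0.18) and by a median of 0.10 over all genes. With arrays centred on the median in place of loess, the sign differed between arrays for Tgfb1, Tgfb2, Ltbp3 and Tgfbr1. The share of all genes there was not computed.

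**Figure D3:**
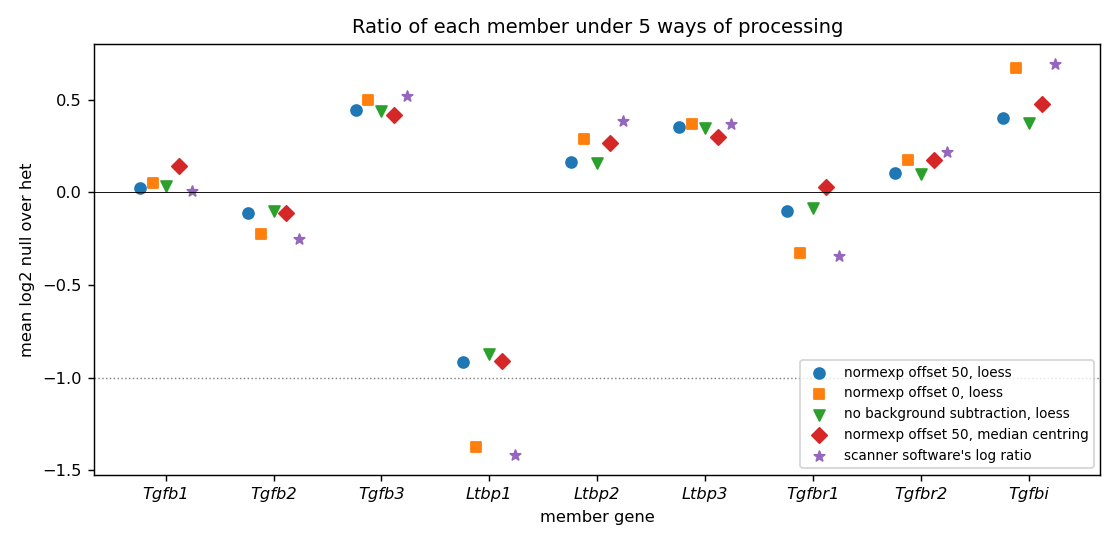
Mean log2 ratio of null over het (vertical axis) of each member gene (horizontal axis) with 5 ways of processing the same arrays, and a dotted line at 2-fold lower. Ltbp1 passes that line with an offset of 0 (-1.38) and in the scanner software's ratios (-1.42), and Tgfbi is also farther from 0 there (0.67 and 0.70). The means of Tgfb3 and Ltbp3 move little, but under median centring their arrays part, at 0.77 and 0.06 for Tgfb3 and 0.70 and -0.10 for Ltbp3.

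Further genes of the pathway were read from 5 lists with 58 genes, of which 46 had a probe and 43 passed the filter. None of the 43 met the 2-fold rule, met by 0.0378% of all genes as higher and 0.0917% as lower, or the 1.5-fold rule, met by 0.405% and 0.416%. Of the 43, 22 had positive ratios on both arrays, where 22.7% of all genes did, and 9 had negative ones, where 24.3% did. The positive share was thus above that of all genes and the negative share was near it. The lists were chosen with earlier results of these data known, so nothing is read from these counts. The median ratio of the 43 was 0.03, against -0.00375 for all genes. No list had a median more than 0.07 from 0.

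Of the coreceptors and decoy receptors, Eng and Tgfbr3 passed the filter, and no probe carried Bambi. Eng, the endoglin gene, had a ratio of -0.08 ± 0.11, and Tgfbr3, which encodes betaglycan, a presenter of Tgfb2 and of inhibin, had 0.03 ± 0.06. Of the other latent-complex and matrix binders, 6 of 9 passed, with 2 positive (22.7% of all genes were) and 2 negative (24.3%) on both arrays and a median of 0.01. Fbn2, which encodes a fibrillin of the microfibrils that hold latent complexes, read -0.72 and -0.23, a mean of -0.48 ± 0.35. Emilin1, whose product holds back the processing of the Tgfb1 precursor, read -0.64 and -0.31, a mean of -0.48 ± 0.23. Both were negative on both arrays, as was Ltbp1, but with a wider gap between the arrays.

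Of 14 activators of latent TGF-beta, 10 passed, 7 were positive (22.7% of all genes were) and 1 was negative (24.3%) on both arrays. Their median was 0.07, and Mmp9 and Plau, named after their values were seen, had 0.03 each. Plat, which encodes tissue plasminogen activator, read 0.54 and 0.31 (0.42 ± 0.16), and Itgb5, the beta 5 integrin subunit gene, read 0.41 and 0.27 (0.34 ± 0.10). Of 13 SMADs and their regulators, 9 passed, 5 were positive (22.7% of all genes were) and none was negative (24.3%) on both arrays, with a median of 0.04. The inhibitory SMAD genes Smad6 and Smad7 had the largest ratios there, at 0.27 ± 0.24 and 0.22 ± 0.10.

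Of 19 textbook TGF-beta target genes, 16 passed, 8 were positive (22.7% of all genes were) and 5 negative (24.3%) on both arrays, and the median was 0.04. Myc, a growth-promoting transcription factor gene, read 0.52 and 0.57, a mean of 0.55 ± 0.03. Id3, which encodes an inhibitor of helix-loop-helix transcription factors, read -0.72 and -0.29, a mean of -0.51 ± 0.31. These targets respond to other signals as well.

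**Figure D4:**
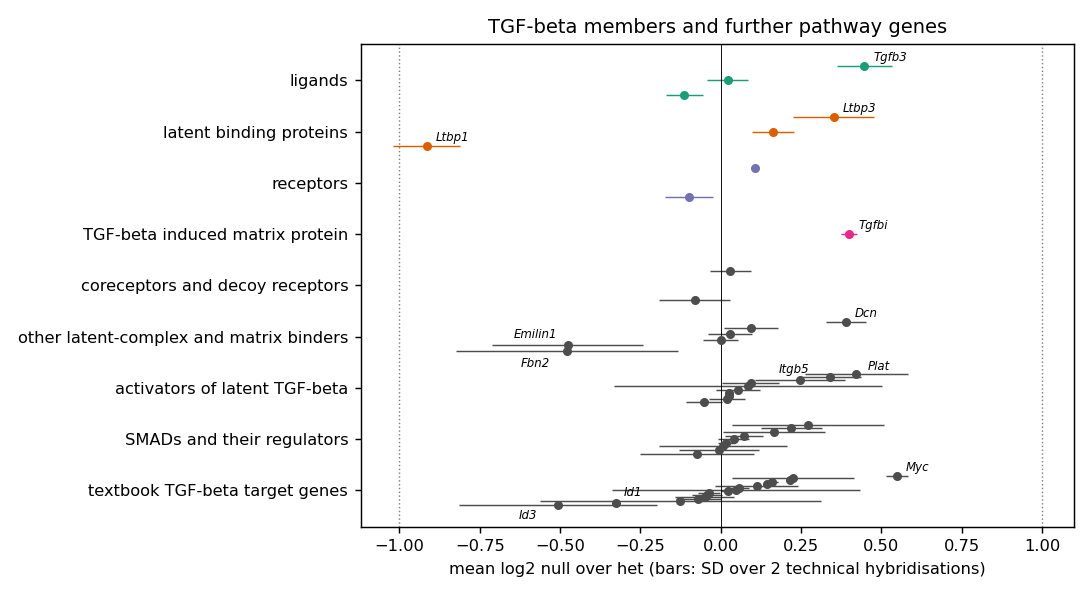
Mean log2 ratio of null over het (horizontal axis) of the 9 members (coloured) and of the 43 further pathway genes that passed the background filter (grey), grouped by role, with bars for the SD over 2 technical hybridisations and dotted lines at 2-fold. Ltbp1 lies farthest from 0, and no further pathway gene reaches 2-fold.

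Markers of oocytes, and some markers of granulosa cells, differed between the pools as well. Of 10 granulosa markers, 8 passed the filter, with 6 negative (24.3% of all genes were) and 1 positive (22.7%) on both arrays and a median of -0.59. Inhba, the beta A subunit gene of inhibin and activin, at -1.16 ± 0.50 and the aromatase gene Cyp19a1 at -1.27 ± 0.20 met the 2-fold rule as lower, against 0.0917% of all genes, and 3 of the 8 met the 1.5-fold rule, against 0.416%. Not all of the 8 shared this: Fshr read -0.25 and -0.10, Amh read 0.13 and 0.42, and Inha read -1.34 and 0.36. The signal summed over the 8 was 11066 and 13840 in the null pool, against 27973 and 21058 in the het pool. Inhba was the largest term of these sums, and without it they were 4658 and 6359 in the null pool, against 9671 and 7940 in the het pool. Of 10 oocyte markers, 8 passed, and all 8 were positive on both arrays, against 22.7% of all genes, with a median of 0.49. The 1.5-fold rule called 4 of the 8 higher, against 0.405% of all genes. Gdf9, an oocyte growth factor gene, had 0.81 ± 0.30, while Figla was not well above background. The signal summed over the 9 measured markers, Figla included, was 14392 and 11705 in the null pool, against 7811 and 8200 in the het pool. Gdf9 was the largest term, and without it the sums were 6943 and 5686 in the null pool, against 4151 and 4219 in the het pool.

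The remaining marker lists had smaller shifts. None of their genes past the filter met the 2-fold rule, met by 0.0378% of all genes as higher and 0.0917% as lower. None met the 1.5-fold rule, met by 0.405% and 0.416%, and nothing is read from these counts. The 5 theca markers had a median of -0.09 (Nr2f2 at -0.27 ± 0.21), with sums over the measured markers of 1019 and 1127 in the null pool, against 1151 and 1172 in the het pool. Of 7 markers of stroma and smooth muscle, 4 passed, with a median of 0.18, and Dcn, which encodes the TGF-beta binding proteoglycan decorin, at 0.39 ± 0.06. Their sums overlapped, at 2749 and 3307 in the null pool, against 3228 and 2781 in the het pool. Of 6 endothelial markers 4 passed, with a median of -0.05 (Egfl7 at -0.17 ± 0.01), sums of 979 and 999 in the null pool, against 1060 and 1051 in the het pool, and Tek and Tie1 not well above background. Of 7 macrophage markers 4 passed, with a median of 0.19 and Lyz2 at 0.46 ± 0.05. Among these 4, 2 were positive on both arrays (22.7% of all genes were) and 2 changed sign between arrays. The macrophage sums were 1178 and 1149 in the null pool, against 962 and 1053 in the het pool. Ptprc and Itgam were not well above background. Of 6 surface epithelium markers 5 passed, with a median of 0.15 and Cdh1 at 0.49 ± 0.01. Their sums overlapped, at 1255 and 1030 in the null pool, against 1144 and 906 in the het pool. Positive on both arrays (22.7% of all genes were) were 0 theca, 2 stroma, 1 endothelial and 4 surface epithelium markers that passed. Negative on both arrays (24.3% of all genes were) were 3, 0, 2 and 1 of them. The part of these cell types in the ratios of Ltbp1, Tgfb3, Ltbp3 and Tgfbi was not tested.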

How the data were processed

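RNA of 1 null and 1 het granulosa-cell pool was compared on 2 dye-reversed Agilent arrays, from 500 ng of total RNA per labelling and 750 ng of each cRNA hybridised for 17 h, per the labels' protocols. The deposited scanner files hold the intensity of each spot and of its background per channel, and a log10 ratio of red over green, made with Agilent Feature Extraction A.7.5.1 per the file headers. Values in the deposited series table are log2 of red over green: for 100% of probes with 1 spot they equalled that array's scanner ratio to within 0.001, and their medians were 0 and 0.0022. No further centring was found.

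Intensities were corrected with normexp (offset 50, which pulls ratios of dim spots toward 0) and, with weight 0 for control spots, loess-normalized array by array in limma 3.58.1 (R 4.3.3). Later steps used Python 3.11.15, numpy 2.4.6 and pandas 2.3.3. Outlier spots (58 and 95 of 21318 non-control spots per array) were left out. The sign of array 2 was turned and the arrays were averaged as 1 replicate. Their number limits the precision. Spots of a probe were averaged, and the brightest probe stood for a gene. Of 20868 probes, 8947 were named by accession, through the RefSeq gene table of GRCm38.p6, 510 by a symbol or unique synonym in the description and 6 by a name there, and 11405 kept the file's name.

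The members and lists were chosen with earlier results of these data known. Named genes were Esr2, every member, the 2 with the largest absolute ratio in each pathway list, and in each marker list those past the 2-fold rule or otherwise the 1 with the largest absolute ratio. AK009837, Fshr, Amh and Inha were named after their values were seen. Alternatives were an offset of 0, no background subtraction, median centring, the scanner software's ratio, the series table, the mean over probes, other background filters, a 1.5-fold threshold and each array alone.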

Additional observations from a re-analysis of the deposited data

How the results depend on the processing

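Each member kept the sign of its mean ratio in all 8 alternatives tried, except Tgfb1 and Tgfbr1. Tgfb1 was -0.02 on array 1 alone, Tgfbr1 was 0.0301 under median centring, and the cause was not tested. The 8 were not all separate checks. With 1 probe per member, averaging over probes could change nothing. The single arrays are the parts of the mean, and the series values add nothing to those of the scanner. Separate checks were an offset of 0, no background subtraction, median centring and the scanner software's ratio. With the offset at 0, the ratios were -1.38 for Ltbp1, 0.29 for Ltbp2, -0.23 for Tgfb2, 0.67 for Tgfbi, -0.33 for Tgfbr1 and 0.18 for Tgfbr2. In the scanner software's ratios, and in the series table that repeats them, these were -1.42, 0.38, -0.25, 0.70, -0.34 and 0.22. Median centring gave 0.27 for Ltbp2, 0.14 for Tgfb1, 0.48 for Tgfbi and 0.17 for Tgfbr2. Array by array it gave 0.70 and -0.10 for Ltbp3, 0.77 and 0.06 for Tgfb3, -0.28 and 0.06 for Tgfb2, -0.41 and 0.70 for Tgfb1 and -0.56 and 0.62 for Tgfbr1, so the arrays differ in sign for Ltbp3, Tgfb2, Tgfb1 and Tgfbr1, while Ltbp1 read -0.90 and -0.92. No background subtraction gave 0.0989 for Tgfbr2. No member met the 2-fold rule in the chosen processing. Of the members, 1 (Ltbp1, lower) met it with an offset of 0, in the scanner software's ratios and in the series table. In the chosen processing Ltbp1 met only the 1.5-fold rule. Over all genes the 2-fold rule called 7 higher and 17 lower, against 23 and 43 with an offset of 0. It called 26 and 45 in the ratios of the scanner software or series table. The 1.5-fold rule called 75 higher and 77 lower in the chosen processing. With each array alone, the 2-fold rule called 7 to 12 higher and 10 to 40 lower. On single arrays the ratio lay between -0.99 and -0.84 for Ltbp1, 0.12 and 0.21 for Ltbp2, 0.26 and 0.44 for Ltbp3, -0.02 and 0.07 for Tgfb1, -0.15 and -0.07 for Tgfb2, 0.39 and 0.51 for Tgfb3, 0.38 and 0.42 for Tgfbi, and -0.15 and -0.05 for Tgfbr1. Signal over background limits Tgfb1 and Tgfbr1 most, the dimmest members relative to background. No paired analysis was possible because each genotype had 1 pool.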
